A study of Mus musculus with 30 samples.

Results

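Central Treg (cTreg), the resting Foxp3-expressing regulatory T cells of lymphoid organs, were compared with naive conventional CD4+ T cells (Tnaive) by ATAC-seq, an assay in which a transposase cuts and tags open chromatin. The comparison rested on 4 of the 30 samples of the series, 2 libraries a group, and on all 69316 peaks of the deposited table with 26 libraries. It asks which sites differ between the 2 lineages when both are at rest. Both groups were sorted without culture from lymph nodes and spleen of C57BL6/J mice that carry Foxp3-IRES-hCD2, a human CD2 reporter transcribed together with Foxp3. Both were gated on CD4 with high CCR7 and low CD44, among other markers. They differed in the reporter, which was present in cTreg and absent in Tnaive, so that Foxp3 itself is not independent of the sort. Effector Treg (eTreg) and effector T cells (Teff), used below, had the same genotype and were low in CCR7. WT Treg and conventional T cells (Tconv) were sorted on CD4 and the reporter alone, and BATFKO Treg carried Batf-/- besides. Foxp3R397W Treg and their WT control were hCD2+GFP- cells of animals with Foxp3R397W-IRES-hCD2 or Foxp3WT-IRES-hCD2 on 1 allele and Foxp3-IRES-GFP on the other. DKO Treg (Foxp3KO-IRES-hCD2.Batf-/-) had received a mock or a Foxp3 retrovirus. Ages are not given, and no label says that the 2 libraries of a group came from separate animals, so p-values measure a spread that may be technical.

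The names of the libraries are disputed within the deposit. The libraries called cTreg here carry the name Foxp3R397W Treg in the other deposited table, with 22 libraries, and those called Tnaive carry the name of the WT control of Foxp3KO Treg. Over the 4478 peaks with the same coordinates in both tables, between 99.8% and 99.9% held the same number of reads. eTreg, Teff, Foxp3R397W Treg and its control are also named differently there, while WT Treg, Tconv and BATFKO Treg carry the same names in both. The titles make the 4 libraries ATAC-seq under one name and omniATAC-seq, which uses a different lysis, under the other, so the protocol is not settled. In the other table, with its own peaks, scores and names, 1 peak was higher in cTreg and 4 were lower (limma, adjusted p under 0.05 over 68597 peaks), and 886 peaks had an unadjusted p under 0.05. The libraries named Tnaive there match none of the table used here, so that this is a comparison of other libraries and not of other names alone. The libraries called Tnaive here scored 1.28 and 9.07 at the main Foxp3 peak described below, and those called cTreg scored 435 and 370.

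Treg are CD4+ T cells that restrain immune responses. Their lineage factor Foxp3 binds largely to enhancers, sites away from promoters at which transcription factors act, and many of these sites carry T cell receptor-induced and Runx or Ets factors. Resting Treg share with naive T cells the receptors for entry into lymph nodes, while receptors such as CTLA-4 and the high-affinity IL-2 receptor chain CD25 set Treg apart. A site that is closed in a cell gives few transposase cuts, and the number of cuts in a peak is read as its accessibility.

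Peak sequences were not used here, but promoters that lie under changed peaks can be shown from RefSeq (GRCm38.p6, the assembly also called mm10). Of 21263 promoter windows, each 250 bases before to 50 after a start site, 8714 windows of 7915 genes shared at least 150 bases with a peak. Among them, 201 (2.31%) lay under a peak higher in cTreg and 165 (1.89%) under a lower one. The windows below are shown because they differ in the direction of change and in letter content. They were chosen after their values were seen. Foxp3, the lineage factor, lies at chrX:7579426-7579725 on the plus strand. Ccr6, a chemokine receptor of effector Treg, lies at chr17:8242276-8242575 on the plus strand, and Areg, the tissue repair factor amphiregulin, at chr5:91139349-91139648 on the plus strand. App, the amyloid precursor protein, lies at chr16:85173658-85173957 and Gpr15, a gut homing receptor, at chr16:58718823-58719122, both on the minus strand. Each run reads 5′ to 3′ along the gene, and capitals mark every match on either strand to the motifs listed next.
Foxp3: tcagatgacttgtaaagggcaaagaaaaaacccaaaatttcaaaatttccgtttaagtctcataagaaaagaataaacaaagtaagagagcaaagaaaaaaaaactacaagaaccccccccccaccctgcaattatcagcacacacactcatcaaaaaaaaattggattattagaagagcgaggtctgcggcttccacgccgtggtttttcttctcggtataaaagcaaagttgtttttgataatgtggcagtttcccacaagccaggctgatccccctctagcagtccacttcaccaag
Ccr6: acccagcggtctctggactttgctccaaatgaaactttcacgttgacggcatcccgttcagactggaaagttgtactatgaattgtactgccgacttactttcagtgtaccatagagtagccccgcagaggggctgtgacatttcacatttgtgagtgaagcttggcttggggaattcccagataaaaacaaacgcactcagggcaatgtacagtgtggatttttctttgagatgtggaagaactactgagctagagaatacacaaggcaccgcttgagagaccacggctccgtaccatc
Areg: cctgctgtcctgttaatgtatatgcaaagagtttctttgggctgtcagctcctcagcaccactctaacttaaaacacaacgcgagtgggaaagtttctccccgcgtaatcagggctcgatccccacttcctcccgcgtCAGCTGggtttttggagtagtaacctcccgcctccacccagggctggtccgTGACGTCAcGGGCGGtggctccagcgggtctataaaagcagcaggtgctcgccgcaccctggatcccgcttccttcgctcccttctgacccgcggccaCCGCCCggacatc
App: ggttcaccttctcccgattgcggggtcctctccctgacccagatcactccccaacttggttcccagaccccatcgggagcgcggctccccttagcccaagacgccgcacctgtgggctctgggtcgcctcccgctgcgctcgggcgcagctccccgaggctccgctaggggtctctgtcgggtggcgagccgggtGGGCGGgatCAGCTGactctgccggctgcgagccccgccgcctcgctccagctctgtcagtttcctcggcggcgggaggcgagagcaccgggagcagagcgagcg
Gpr15: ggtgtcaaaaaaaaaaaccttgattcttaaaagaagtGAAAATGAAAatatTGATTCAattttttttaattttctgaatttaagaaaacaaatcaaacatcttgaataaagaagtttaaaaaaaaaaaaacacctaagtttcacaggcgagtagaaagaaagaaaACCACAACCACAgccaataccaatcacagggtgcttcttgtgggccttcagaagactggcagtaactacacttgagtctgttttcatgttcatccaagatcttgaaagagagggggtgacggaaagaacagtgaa

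Scores at these promoters moved as follows. The peak on the Foxp3 window scored 75.5 and 67.2 in the cTreg libraries and 8.94 and 13 in the Tnaive libraries (log2 difference of score + 1 of 2.62, SE 0.31, adjusted p = 2e-07). The peak on the Ccr6 window held 3 reads in the Tnaive libraries together and scored 41.8 and 52.9 in cTreg, a read ratio of 24.2 with a 95% interval of 8.04 to 120. Areg scored 128 and 160 against 21.7 and 40.2 (2.24, SE 0.26, 2.3e-07). App scored 123 and 179 in cTreg against 545 and 483 in Tnaive (−1.79, SE 0.23, 1.3e-06), and Gpr15 scored 22.2 and 32 against 130 and 113 (−2.14, SE 0.34, 2.5e-05). Of the 6 Gpr15 peaks, this 1 was lower in cTreg and 4 were higher. In all 5, both libraries of one group lay above both of the other, as they did at 55.9% of all peaks. These are called peaks picked after their values were seen, so this lack of overlap follows from the choice. The letters searched, on both strands, were AP-1 TGANTCA, CRE TGACGTCA, RUNX TGTGGT, ETS CCGGAAG, TCF/LEF ATCAAAG, forkhead TGTTTAC, NFAT TGGAAAA, NF-kB (GGG and TTTCC with 2 bases between), STAT TTCNNNGAA, IRF (GAAA and GAAA with 2 bases between), E-box CAGCTG and SP/KLF GGGCGG. The Foxp3 and Ccr6 windows hold none of these letters. Counted from 1 at the 5′ end, matches in Areg begin at base 190 for CRE, 139 for the E-box, and 199 and 288 for SP/KLF. Those in App begin at 205 for the E-box and 196 for SP/KLF, and those in Gpr15 at 38 for IRF, 52 for AP-1, and 166 and 172 for RUNX. No matches overlap in the windows shown. NF-kB letters were in 12 of 201 windows under higher peaks (5.97%), 2 of 165 under lower peaks (1.21%) and 1.61% of all 8714. Forkhead letters were in 5.47% (11 windows), 2.42% (4 windows) and 2.39%. RUNX letters were in 11.4%, 18.2% and 12.2%, and ETS letters in 7.96%, 5.45% and 21.7%. CRE was in 3.48%, 1.21% and 3.89%, TCF/LEF in 2.49%, 3.64% and 2.47%, and NFAT in 3.98%, 6.06% and 4.01%. STAT was in 6.47%, 3.03% and 6.59%, IRF in 1.49%, 4.24% and 2.89%, and AP-1 in 6.97%, 7.88% and 4.36%. The E-box was in 15.4%, 21.8% and 13.9%, and SP/KLF in 62.2%, 58.8% and 69.9%. The median share of G and C letters was 62.3%, 57.3% and 62%. These shares are descriptions of short windows at start sites, and most changed peaks lay elsewhere.

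Between cTreg and Tnaive, 6100 peaks were higher in cTreg and 5418 were lower (limma on log2(score + 1), Benjamini-Hochberg adjusted p under 0.05). These are 8.8% and 7.82% of the 69316 peaks tested, 16.6% in all. The score is the authors' normalized read count of a peak. Reads in peaks were 7307713 to 10115985 in the 4 libraries, and the median SE of a log2 difference was 0.34 at 13 residual degrees of freedom shared by all groups. Libraries of the groups did not overlap at 6071 of the higher and 5413 of the lower peaks, against 55.9% of all peaks. The higher peaks had a median log2 difference of 1.69, and 2243 of them (36.8%) differed at least 4-fold and 182 at least 16-fold on the score + 1 scale. The lower peaks had a median of 1.48 in size, with 1514 (27.9%) at least 4-fold and 60 at least 16-fold. Of the higher peaks, 46.1% scored under 10 on average in Tnaive. Of the lower peaks, 18.6% scored under 10 in cTreg. Without cTreg replicate 1, the library with the most reads in peaks, 7582 peaks were called in place of 11518, and 7131 of them were called the same way as with it. The number of lower peaks was the less stable and fell by more than 1.5 times without any 1 of the 4 libraries, to 3221 without Tnaive replicate 2, 3345 and 3486 without cTreg replicates 1 and 2, and 3499 without Tnaive replicate 1. In these bulk samples, fewer cells with an open site and less opening per cell cannot be told apart. Each peak carries the name of the closest protein-coding gene, at most 100 kb away, which says nothing about the gene a site acts on.

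The largest gains were at Treg genes and at genes that belong to none of the lists used here. They are the 12 peaks, 1 per gene, with the largest log2 differences among called peaks whose libraries did not overlap and whose mean score over the 4 libraries was above the median of all peaks, 50.1. A peak inside Foxp3 (chromosome X, 7583922 to 7584322) scored 435 and 370 in cTreg against 1.28 and 9.07 in Tnaive (6.39, SE 0.50, adjusted p = 7.2e-08). Its centre lies 3639 bp from the nearest listed start site, which is not the one of the promoter window shown above. A peak 26284 bp from Tet2, a DNA demethylating enzyme, scored 184 and 176 against 3.83 and 0. Its 3 Tnaive reads give a read ratio of 93.6 with a 95% interval of 31.8 to 456. A peak 62974 bp from Ppm1b, a protein phosphatase, scored 296 and 327 against 7.66 and 1.3 (6.13, SE 0.34, 3e-13). Within Ikzf2, which encodes the Treg factor Helios, a peak scored 99.5 and 104 against a single Tnaive read (ratio 158, interval 28 to 6254). The rule of choice required both libraries of cTreg to lie above both of Tnaive at each of these peaks. Peaks at Dusp4, a MAP kinase phosphatase (180 and 182 against 3.83 and 1.3), and at Rbm45, an RNA-binding protein (268 and 269 against 5.11 and 3.89), rose by 5.77 and 5.63. Emsy and Lrrc32, described below, and peaks at Pter, Atxn7l1, Coro2a and Hdac9 completed the 12, the last 4 with log2 differences of 5.58, 5.31, 5.20 and 5.18.

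**Figure D1:**
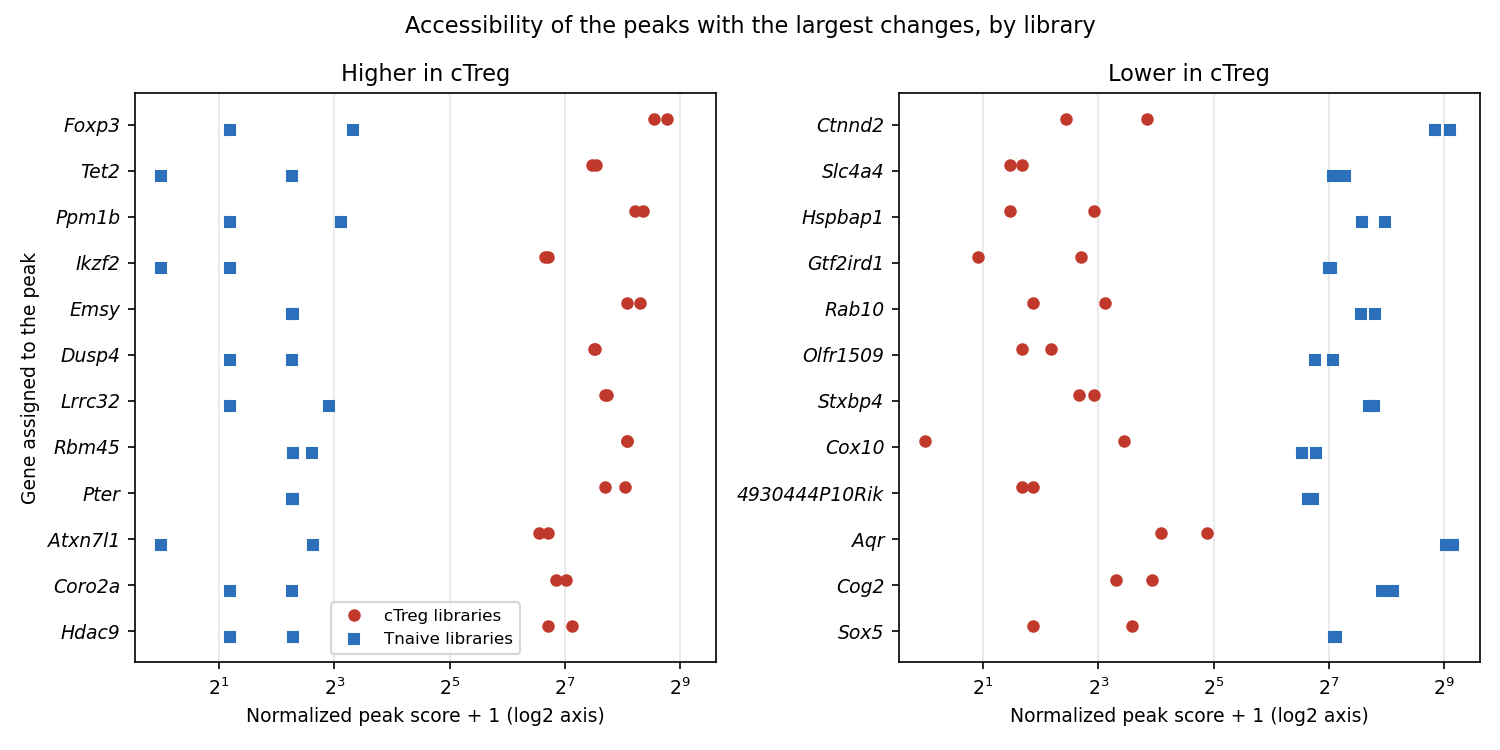
Normalized peak score + 1 on a log2 axis in the 2 cTreg libraries (circles) and the 2 Tnaive libraries (squares). Shown are the 12 largest gains (left) and the 12 largest losses (right), 1 peak per gene. They were chosen among called peaks with a mean score above the median whose libraries did not overlap. By that choice no cTreg point meets a Tnaive point of the same peak. At Foxp3 the cTreg libraries score 435 and 370 against 1.28 and 9.07.

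The 12 largest losses, chosen by the same rule, lay at genes that belong to none of the lists. A peak inside Ctnnd2, which encodes a delta-catenin, scored 13.3 and 4.41 in cTreg against 456 and 548 in Tnaive (−5.83, SE 0.65, adjusted p = 7.2e-08). A peak inside Slc4a4, a sodium bicarbonate cotransporter, scored 1.78 and 2.2 against 155 and 133 (−5.60, SE 0.82, 7.7e-06). Hspbap1 (1.78 and 6.61 against 249 and 190) and Gtf2ird1, a transcription factor gene (0.889 and 5.51 against 128 and 130), had log2 differences of −5.57 and −5.21. The rule likewise required both cTreg libraries to lie below both Tnaive libraries at each of these sites. A peak 35594 bp from Cox10 scored 0 and 9.92 against 92 and 109, and lost its call in a fit of the 4 libraries alone (adjusted p = 0.096). The other 7 of the 12 largest losses, at Rab10, Olfr1509, Stxbp4, 4930444P10Rik, Aqr, Cog2 and Sox5, lay between −5.18 and −4.38.

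Treg identity genes gained accessibility at many sites. Of 325 peaks at 26 such genes, 158 were higher and 6 lower in cTreg, against 8.8% and 7.82% of all peaks, with a median log2 difference of 0.91 against −0.03 over all peaks. Of the 26 genes, 25 had at least 1 higher peak, and the exception was Capg. Ikzf2 had 28 higher peaks of 41 and none lower, the most of any gene. Ctla4, the inhibitory receptor, had 15 of 22. Its peak at 60887023 to 60887423 of chromosome 1 scored 95.1 and 69.4 against 1.28 and 6.48 (4.32, SE 0.35, adjusted p = 6e-10). Ikzf4, which encodes Eos, a partner of Foxp3, had a peak at 56 and 80.5 in cTreg and no read in Tnaive, at least 17.7-fold higher with a floor of 3 reads per library. Itgb8, the integrin chain with which Treg activate TGF-beta, scored 403 and 549 against 24.3 and 27.2 at a peak 518 bp from its start site (4.14, SE 0.19, 2.5e-15). Peaks at Tnfrsf4, the costimulatory receptor OX40 (210 and 194 against 74.1 and 55.7), and Tnfrsf18, GITR (174 and 129 against 43.4 and 29.8), rose by 1.64 and 2.03. Nrp1, a surface coreceptor of thymic Treg, had 6 higher and 4 lower of 38 peaks. Where 1 peak stands for a gene here and below, it is the one with the smallest p unless a place is given.

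Start-site peaks of these genes were called in part. Of the 26 genes, 18 had a peak within 1 kb of a start site, and at the closest such peak 10 were higher, none was lower and 8 were not called. Among the higher were Foxp3, Tnfrsf4 and Itgb8, given above, and Plagl1, which encodes a zinc finger protein (156 and 133 against 35.8 and 33.7, 2.03, SE 0.19, adjusted p = 4.6e-09). The others lay between 0.59 at Swap70 and 1.74 at Rgs16. At Il2ra, Ctla4, Tnfrsf18, Entpd1, Nrp1, Ecm1, Lrig1 and Tnfrsf1b the start-site peak did not pass the test. The Il2ra start-site peak, 42 bp from the start of the gene for CD25, scored 308 and 363 in cTreg and 351 and 384 in Tnaive (−0.13, SE 0.17, adjusted p = 0.71). By contrast, at 16682 bp from that start a peak scored 84.4 and 61.7 against 1 read in Tnaive, a ratio of 116 with an interval of 20.4 to 4592. Of the 18 Il2ra peaks, 9 were higher and 2 lower. The Ctla4 start-site peak scored 526 and 485 against 347 and 394 (0.45, SE 0.24, adjusted p = 0.23); it missed the threshold here and passed under quantile scaling (0.53, limma adjusted p = 0.036) and in fits of fewer groups. At the start of Tnfrsf18 the libraries scored 162 and 162 against 198 and 207 (−0.32, SE 0.18, 0.26). Over all peaks with a listed start site, 290 of 10027 within 1 kb of one were higher (2.89%) and 239 lower (2.38%). Beyond 100 kb, the shares were 12.2% and 11.1% of 5524 peaks. Peaks within 1 kb made up 6.70% of the higher, 5.99% of the lower and 19.4% of all peaks. Peaks over 100 kb from any gene body made up 9.21%, 7.68% and 5.96%.

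**Figure D2:**
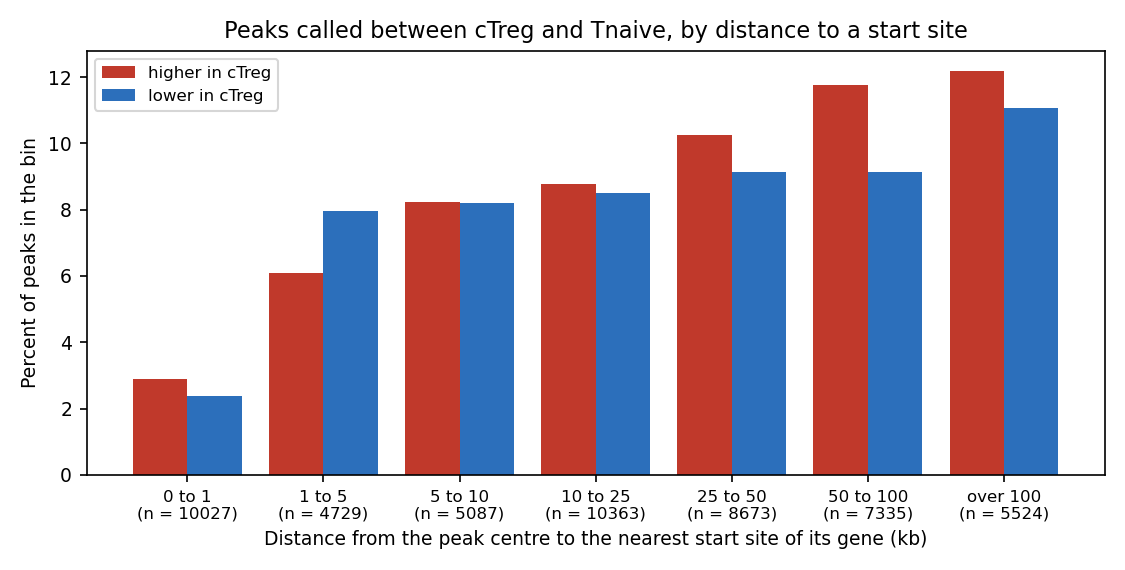
Percent of peaks called higher (red) or lower (blue) in cTreg than in Tnaive, by distance from the peak centre to the nearest start site of the assigned gene in kb, with the number of peaks in each bin. Both shares are lowest within 1 kb (2.89% and 2.38%) and highest beyond 100 kb (12.2% and 11.1%).

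Long runs of sites moved together at some genes. Over all peaks, 8.8% were higher and 7.82% lower. Genes with many called peaks were added here after values were seen. Of 478 genes with at least 5 called peaks, 157 had only higher, 81 only lower and 240 both. All 10 peaks of Lrrc32, which encodes GARP, the receptor that displays latent TGF-beta on Treg, were higher, by 1.69 to 5.67. The strongest (chromosome 7, 98491686 to 98492086) scored 212 and 206 against 1.28 and 6.48 (5.67, SE 0.31, adjusted p = 1.8e-13). The neighbouring gene Emsy, which encodes a BRCA2-binding protein, had 16 higher peaks of 18. Its peak at 98562962 to 98563362 scored 313 and 269 against 3.83 and 3.89 (5.90, SE 0.30, 1.5e-14). Together, 26 of 28 peaks in this stretch were higher, over 129 kb. The peak at the start site of Emsy was not: it scored 479 ± 3.7 in cTreg and 642 ± 28 in Tnaive (SD, n = 2; limma adjusted p = 0.074). Mdfic (21 of 25 peaks), Rgs1, a regulator of G protein signalling (21 of 24), Cdk6, a cell cycle kinase (19 of 29), and Hdac9, a histone deacetylase (19 of 25), also gained without a lower peak. In the other direction, 19 of 20 Slc4a4 peaks, 12 of 14 Ctnnd2 peaks and all 12 App peaks were lower.

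**Figure D3:**
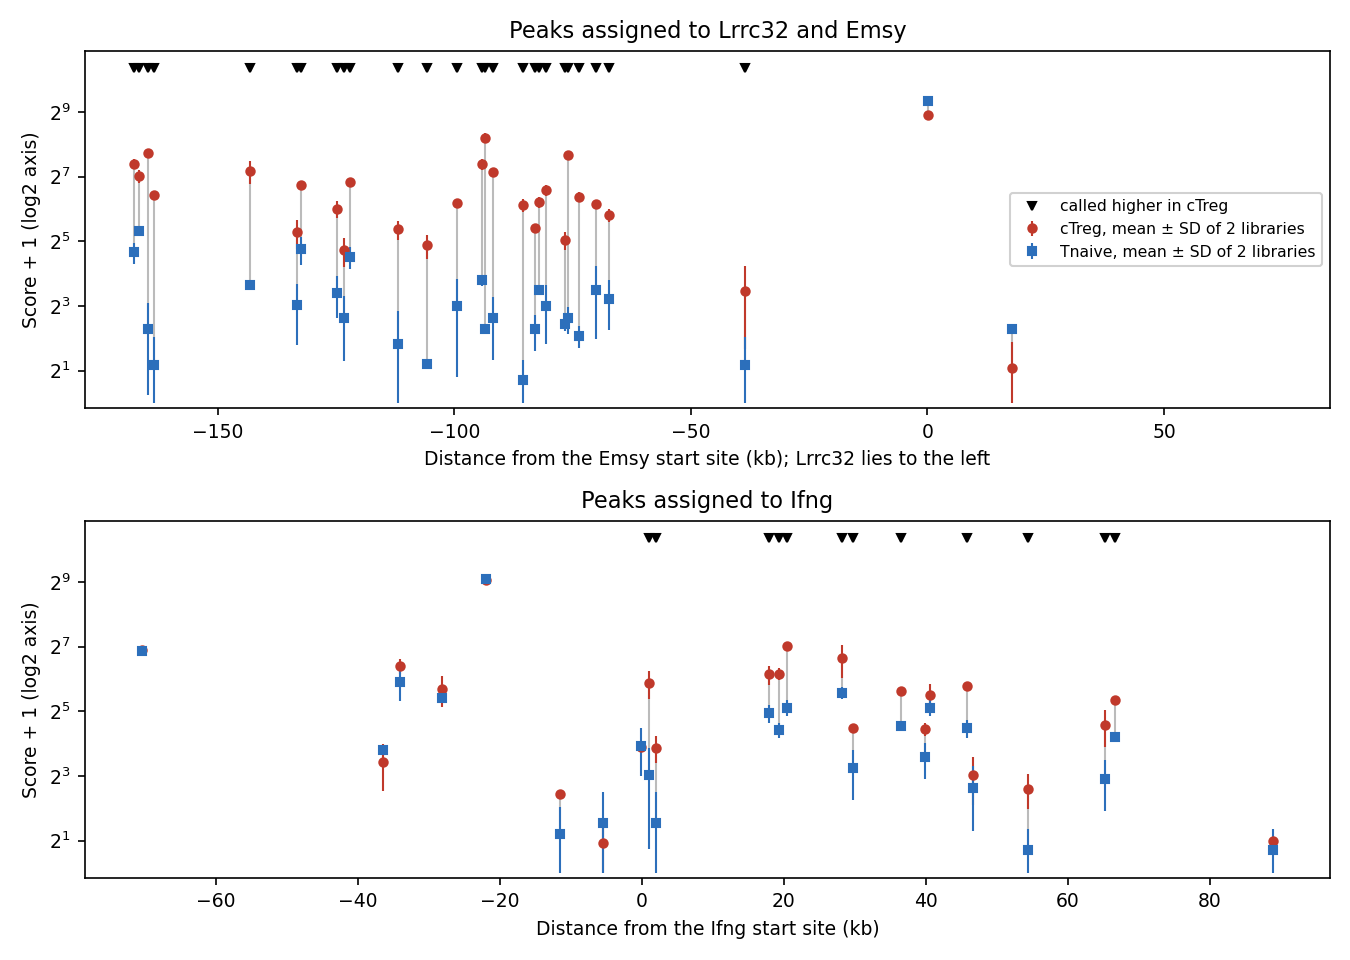
Mean score + 1 on a log2 axis with the SD of 2 libraries, for peaks assigned to Lrrc32 and Emsy (top) and to Ifng (bottom), by distance in kb from the Emsy or Ifng start site; triangles mark peaks called higher in cTreg. At the top, 26 of 28 peaks are called and the start-site peak of Emsy is not. At the bottom, 12 of 24 are called, all to the right of the start site.

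Genes of conventional T cells had more losses than gains, and 12 of the 22 gains were at Ifng alone. The list of 18 genes that Treg are known to hold down or make little of had 36 lower and 22 higher of 299 peaks. These are 12% and 7.36%, against 7.82% lower and 8.8% higher of all peaks, and the median was −0.13. A peak 26539 bp from the start of Il2, the T cell growth factor, scored 176 and 204 in cTreg against 631 and 626 in Tnaive (−1.72, SE 0.21, adjusted p = 2.9e-07). A peak at Il21, the follicular helper cytokine, scored 49.8 and 49.6 against 184 and 227 (−2.02, SE 0.30, 1.2e-05), and 5 of 13 Il21 peaks were lower. Lef1, a factor of naive T cells, had 8 lower peaks of 40, the clearest at 44.4 and 59.5 against 266 and 267 (−2.35, SE 0.31, 1.2e-06). Cd226, an activating receptor, scored 135 and 159 against 682 and 604 (−2.12, SE 0.20, 2.5e-09). At Satb1, a chromatin organiser, the values were 61.3 and 61.7 against 208 and 206 (−1.73, SE 0.29, 6.3e-05). Tcf7, which encodes TCF-1, had 1 lower peak of 17 (−0.71, adjusted p = 0.013), and this call was lost without cTreg replicate 2 (0.19) and without Tnaive replicate 1 (0.13). Bach2, a repressor that keeps T cells quiescent, had 6 higher and 4 lower of 66 peaks. Its clearest peak scored 231 and 223 against 43.4 and 29.8 (2.62, SE 0.21, 1.2e-10).

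Ifng, the gene for interferon gamma, had 12 higher peaks of 24 and no lower one. Its start-site peak was low in both groups, at 14.2 and 13.2 in cTreg and 19.2 and 9.07 in Tnaive (0.05, SE 0.45, adjusted p = 0.97). At 1077 bp from it, a peak scored 45.3 and 69.4 against 2.55 and 11.7 (3.09, SE 0.38, 5.3e-07). The start-site peak averaged 377 in Teff and 59.2 in eTreg, while the peak beside it averaged 148 and 125. The cytokine list had 30 higher and 13 lower of 122 peaks (24.6% and 10.7%, against 8.8% and 7.82% of all peaks). Il10, an inhibitory cytokine, had 7 higher of 13, Tnfsf11, the gene for RANKL, 7 of 15 and Cd40lg, the helper ligand, 3 lower of 13. The clearest Tnfsf11 peak scored 24 and 22 in cTreg with no read in Tnaive, at least 5.96-fold higher with a floor of 3 reads per library.

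Helper lineage factors and effector Treg genes gained more than they lost. Of 179 peaks at 12 helper lineage factors, 44 were higher and 4 lower (24.6% and 2.23%, against 8.8% and 7.82% of all peaks). Ahr, the aryl hydrocarbon receptor, had 10 higher of 15 peaks and Rora, a retinoid-related orphan receptor, 13 higher and 1 lower of 39. A Rora peak scored 70.2 and 67.2 in cTreg and had no read in Tnaive, at least 17.8-fold higher with the same floor. Tbx21, which encodes T-bet, and Eomes had no higher peak. Among 221 peaks of effector Treg genes, 65 were higher and 18 lower (29.4% and 8.14%, median 0.37). The lower share was near that of all peaks. Pdcd1, the receptor PD-1, had 2 higher and 2 lower of 11 peaks, and the clearest scored 80.9 and 87.1 against 11.5 and 7.77 (3.02, SE 0.26, 7.3e-10). Irf4, a factor of effector Treg, scored 48.9 and 36.4 against 6.39 and 5.18 (2.68, SE 0.27, 1.6e-08). Ccr6 had 5 higher of 6 peaks and Tigit, an inhibitory receptor, 7 of 15. Il12rb2, a chain of the IL-12 receptor, had 5 lower of 9, and Prdm1, which encodes Blimp-1, had 1 lower of 20.

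Signalling genes had called peaks in both directions, and higher ones were the more frequent in each list. In the IL-2 and gamma chain list, 32 of 142 peaks were higher and 10 lower (22.5% and 7.04%, against 8.8% and 7.82% of all peaks). The lower share was near that of all peaks. Most gains were at receptor chains and feedback inhibitors. Il2ra had 9 of them, as above. Il2rb, the beta chain, had 6 higher of 8 peaks (88 and 52.9 against 3.83 and 3.89 at the clearest, 3.83, SE 0.27, adjusted p = 1.3e-11). The inhibitor genes Cish and Socs2 had 5 of 5 and 5 of 11. The kinase gene Jak3 and the transducers Stat5a and Stat5b had no called peak. In the TGF-beta list, 38 of 216 peaks were higher and 26 lower (17.6% and 12%, against 8.8% and 7.82% of all peaks). The lists share genes, so part of these gains was already counted under Treg identity. Il2ra, Il2rb and Socs2, with 9, 6 and 5 higher peaks, are on that list. So are Lrrc32 and Itgb8, with 10 and 8. Beside Lrrc32, Itgb8 had 8 higher of 11 peaks and Itgav, its partner chain, 9 of 17, with none lower. Tgfb1, a ligand gene, had 1 higher of 4, and Tgfb3 and Ltbp3, a latent TGF-beta binding protein, had no called peak. The receptor genes Tgfbr2 (8 lower of 36, none higher) and Tgfbr3 (8 lower and 1 higher of 27) mostly had losses among their calls. The clearest Itgav peak scored 314 and 333 against 10.2 and 15.5 (4.57, SE 0.23, 7e-15). In the TNF receptor and NF-kB list, 47 of 214 were higher and 11 lower (22% and 5.14%). Nfkb1, which encodes p105, had 15 higher of 32 and Rel, c-Rel, 5 of 7, the latter at 61.3 and 67.2 against 2.55 and 6.48 (3.66, SE 0.37, 1.3e-08).

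Genes of the T cell receptor pathway and its factors also had called peaks in both directions, with no list above the lower share of all peaks by much. The receptor and costimulation list had 50 higher and 32 lower of 385 peaks (13.0% and 8.31%, against 8.8% and 7.82% of all peaks). Its lower share was near that of all peaks. Of the higher peaks, 15 were at Ctla4. Prkcq, the kinase PKC theta, had 6 lower and 3 higher of 43 and Cd28 4 lower and 1 higher of 26. The receptor-induced factors had 45 higher and 12 lower of 299 (15.1% and 4.01%, against 8.8% and 7.82% of all peaks), with 15 of the higher at Nfkb1 and 5 at Rel. Egr1, Junb, Jund and Nr4a2 had no called peak. Among 25 partner factors of Foxp3, 70 peaks of 511 were higher and 19 lower (13.7% and 3.72%). The lower shares of both factor lists were below that of all peaks. Foxp1 (12 higher and 5 lower of 86) and Ets1 (8 higher of 47, none lower) were among those with the most, beside Rora.

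Genes of the naive state were called at shares near those of all peaks. The naive homing and maintenance list had 46 higher and 40 lower of 500 peaks (9.2% and 8%, against 8.8% and 7.82% of all peaks). Among genes of the gate, Ccr7 and Cd44 had called peaks and Cd4 had none. None of 3 Cd4 peaks was called, and the one with the smallest p scored 391 and 410 against 503 and 460 (−0.26, SE 0.15, limma adjusted p = 0.28). A peak 25013 bp from Ccr7 scored 55.1 and 59.5 against 8.94 and 11.7 (2.38, SE 0.30, 5.5e-07), while 4 other Ccr7 peaks of 20 were lower. Cd44, gated low in both groups, had 4 higher and 1 lower of 19 peaks. A higher one 55269 bp away scored 74.6 and 87.1 against 7.66 and 7.77 (3.23, SE 0.22, 4e-12). That peak averaged 713 in eTreg and 418 in Teff. The lower one, 7772 bp away, averaged 143 in cTreg and 371 in Tnaive (−1.35, SE 0.22, limma adjusted p = 4.4e-05). None of 6 peaks of Il7r, the IL-7 receptor chain, was called (clearest 0.53, SE 0.22, adjusted p = 0.1), although this one passed with TMM-scaled edgeR (0.57, adjusted p = 0.043).

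**Figure D4:**
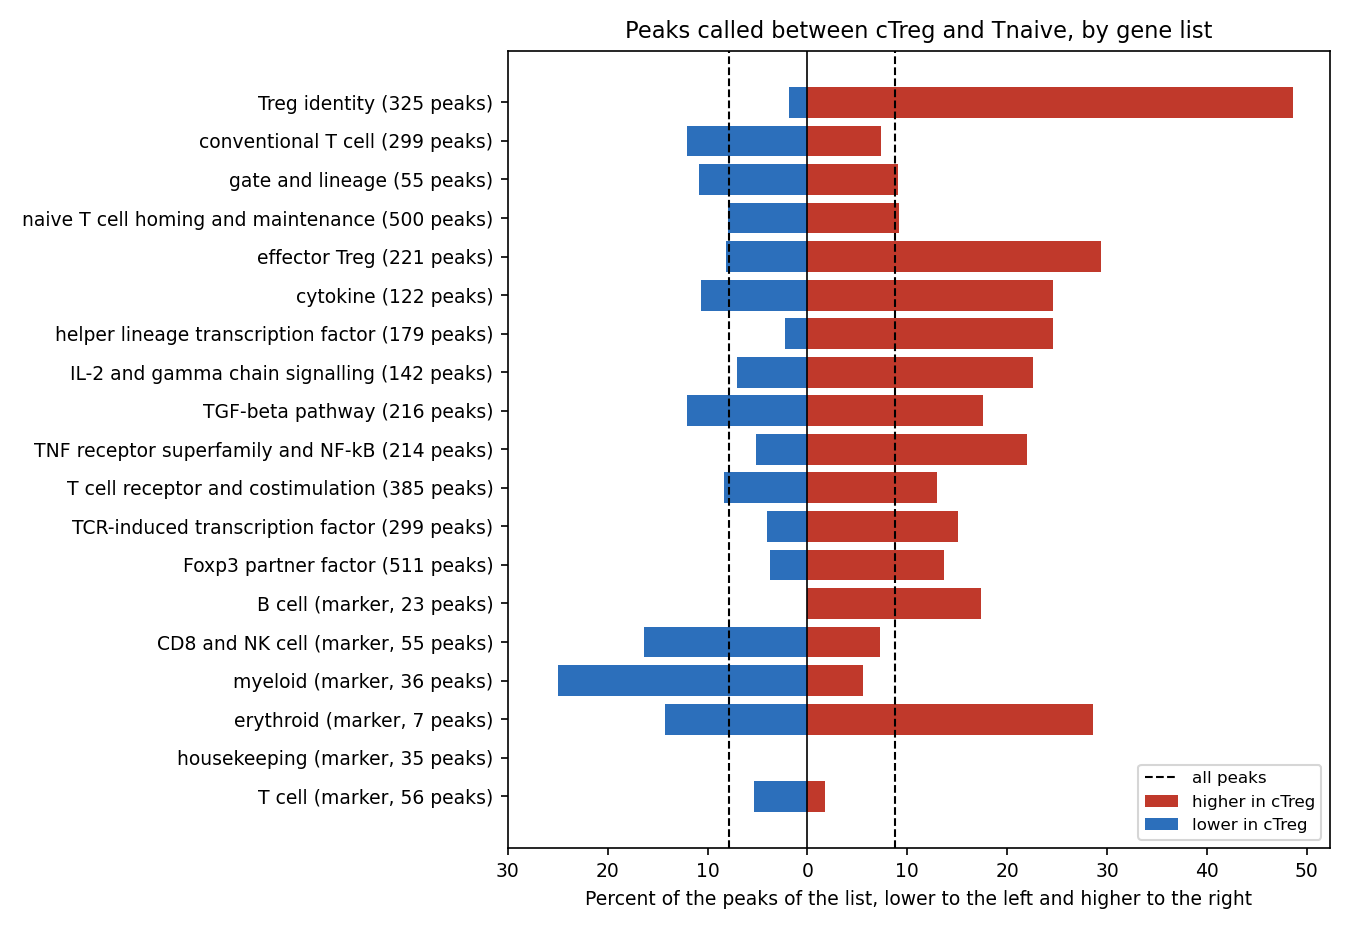
Percent of the peaks of each gene list that were higher (right) or lower (left) in cTreg, with the shares over all peaks as dashed lines (8.8% and 7.82%). Treg identity stands at 48.6% higher and 1.85% lower, the naive homing list at 9.2% and 8%, and housekeeping genes at 0 of 35 peaks in both directions.

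Markers of other cells the sorts could hold moved in part with the groups. T cell markers had 1 higher and 3 lower of 56 peaks (1.79% and 5.36%, against 8.8% and 7.82% of all peaks), and none of 35 housekeeping peaks was called (limma). Of 55 peaks at CD8 T cell and NK cell genes, 4 were higher and 9 lower (7.27% and 16.4%). The lower ones were 3 at Klrk1, 2 at Klrb1c and 1 each at Klrd1, Klra1, Klrc1 and Prf1. The higher ones were 2 at Gzmb and 1 each at Cd8b1 and Klrb1c. Cd8a, Eomes, Nkg7, Ncr1 and Gzma had no called peak. Their summed score was 4746 and 4751 in cTreg and 7093 and 7026 in Tnaive. Klrd1, an NK receptor gene, scored 38.2 and 56.2 against 282 and 419 (−2.86, adjusted p = 1e-06), and averaged 248 in Tconv and 56.2 in Teff. Myeloid markers had 2 higher and 9 lower of 36 (5.56% and 25%), with 6 of the lower at Itgam and 2 at Itgax, and sums of 2016 and 1832 against 2036 and 2117. B cell markers had 4 higher and 0 lower of 23 (17.4% and 0%), with sums of 920 and 1041 against 777 and 854. A Pax5 peak scored 9.78 and 13.2 against 1 read (read ratio 17.6, 95% interval 2.86 to 725), and averaged 62 in WT Treg and 9.62 in Tconv. Ms4a1, Cd79a, Csf1r, Cd68, Adgre1 and Fcgr3 had no peak in the table. Erythroid markers had 2 higher and 1 lower of 7 peaks (28.6% and 14.3%), with sums of 548 and 553 against 467 and 426. The part of such cells in the results was not tested.

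The changed sites were then followed in libraries of other groups, which share no library with the 4 above. In WT Treg against Tconv, names that both deposited tables share, 3818 of the 6100 higher peaks (62.6%) were higher and 11 were lower, against 10.1% and 9.92% of all peaks. They are 54.4% of all peaks higher in WT Treg. Of the 5418 lower peaks, 3795 (70.0%) were lower and 19 higher, and they are 55.2% of all peaks lower there. Median log2 differences were 1.24 and −1.34, against 0.01 over all peaks. The Foxp3 peak averaged 379 and 9.27 in WT Treg and Tconv, the Ppm1b peak 345 and 17.3, and the Ctnnd2 peak 9.79 and 373. The gates of WT Treg and Tconv include the resting cells of either lineage.

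In the effector pair, eTreg against Teff, whose libraries the other table names the WT control of Foxp3R397W Treg and Foxp3KO Treg, part of the sites differed in the same way. Of the higher peaks 2721 (44.6%) were higher and 137 lower, against 8.4% and 9.07% of all peaks, and of the lower peaks 2349 (43.4%) were lower and 33 higher. They are 46.8% of all peaks higher and 37.4% of all peaks lower in eTreg. Medians were 0.88 and −0.85, against 0.04 over all peaks. Over the 6100 higher peaks, median scores were 46.6 in cTreg, 11.6 in Tnaive, 77.4 in eTreg and 39.0 in Teff. Over the 5418 lower peaks they were 34.2, 106, 24.0 and 50.7. Of the 325 Treg identity peaks, 98 were higher both here and in cTreg, and 127 both in WT Treg and in cTreg.

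Comparisons labelled as a change of Foxp3 or BATF called a minority of the sites. The libraries labelled Foxp3R397W Treg, for a substitution in the forkhead domain, carry the name eTreg in the other table, and those of their WT control the name cTreg (98.0% to 98.4% of peaks with equal reads). Under those names the comparison would be of eTreg with cTreg and hold no change of Foxp3, so its counts can be read only as those of the libraries so labelled. In the libraries labelled Foxp3R397W Treg, 642 of the 6100 higher peaks (10.5%) were lower than in the WT control and 2 were higher, against 1.85% and 0.776% of all peaks. These are 50% of all peaks lower under that label. Of the lower peaks, 453 (8.36%) were higher and 24 lower, and they are 84.2% of all peaks higher under it. Medians were −0.50 and 0.52, against 0.03. In DKO Treg, 310 of the higher peaks were higher with the Foxp3 virus than with the mock virus (5.08%, against 1.01% of all peaks), and 341 of the lower ones were lower (6.29%, against 0.814%). These are 44.2% and 60.5% of all peaks higher and lower with it. In BATFKO Treg, 285 of the higher peaks (4.67%) were lower than in WT Treg, against 1.43% of all peaks, and the median was −0.05. Of the lower peaks, 79 (1.46%) were lower and 7 (0.129%) higher there, against 1.43% and 0.062% of all peaks. Their share lower was thus near that of all peaks. Single sites varied. The difference of the libraries labelled Foxp3R397W Treg from their control at the Foxp3 peak itself did not pass the test (−0.28, SE 0.50, adjusted p = 0.92). A Plagl1 peak, 154 and 152 in cTreg against 5.11 and 2.59, was lower in those labelled Foxp3R397W Treg (−1.60, adjusted p = 0.0009). An Nrp1 peak (71.1 and 112 against 10.2 and 6.48 in Tnaive) was lower both there (−1.89, 0.00012) and in BATFKO Treg (−5.48, 1.9e-14). The Aqr peak, lower in cTreg (16 and 28.7 against 524 and 570), was higher in those labelled Foxp3R397W Treg (2.05, 0.0075) and lower with the Foxp3 virus (−3.30, 0.00013).

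**Figure D5:**
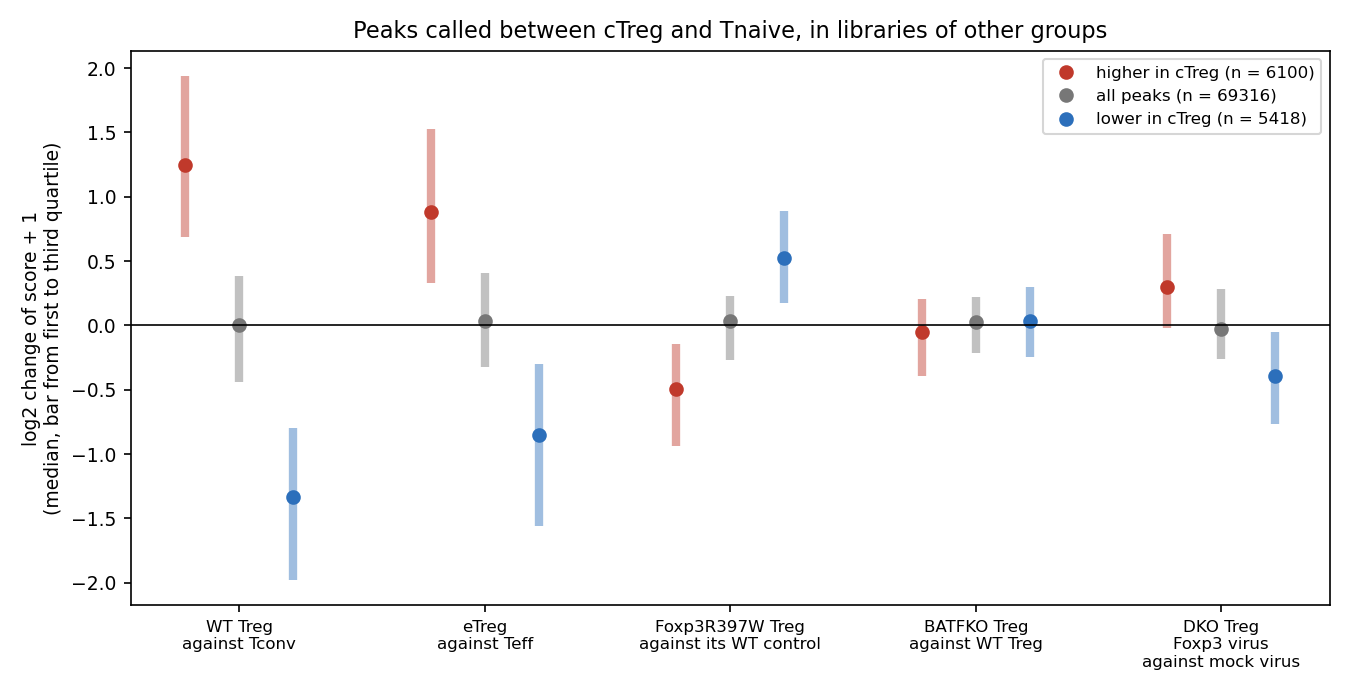
Log2 change of score + 1 in 5 comparisons between other groups, as the median (point) and the range from the first to the third quartile (bar), for peaks higher in cTreg than in Tnaive, lower in cTreg, and all peaks. Medians of the higher and lower peaks lie at 1.24 and −1.34 in WT Treg against Tconv and at −0.50 and 0.52 in the libraries labelled Foxp3R397W Treg against those labelled as their WT control.

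Whether the lineage difference changes with activation was tested directly, as the difference between cTreg minus Tnaive and eTreg minus Teff. The first difference was above the second at 1887 peaks (2.72%) and below it at 821 (1.18%), 2708 peaks or 3.91% in all. Leaving out 1 library took that count to between 1347, without Teff replicate 2, and 2335, and it fell by more than 1.5 times also without cTreg replicate 2 (1689), eTreg replicate 1 (1685), eTreg replicate 2 (1738) and Teff replicate 1 (1692). Among the 5 clearest in the first direction, a peak 23416 bp from Cd47, the gene of a signal that protects cells from phagocytes, scored 371 and 366 in cTreg and 14 and 9.07 in Tnaive, but averaged 577 in eTreg and 523 in Teff (difference of the log2 differences of 4.77, SE 0.32, adjusted p = 1.6e-10). Prr5l (196 and 208 against 8.94 and 13) averaged 204 and 190 (4.01). The Ikzf2 peak at 69544222 to 69544622 scored 559 and 487 against 30.7 and 19.4, and averaged 715 and 544 (3.97, adjusted p = 4.3e-09). At these 3 sites Tnaive was the low group of the 4. In the second direction, a peak inside Mynn scored 23.1 and 13.2 in cTreg against 337 and 396 in Tnaive, and averaged 149 in eTreg and 107 in Teff (−4.78, 8.9e-07). Nebl scored 51.5 and 72.7 against 271 and 241 and averaged 327 and 283 (−2.25, 3.7e-06). N4bp1 and Mapk9 were lower in cTreg than in Tnaive and higher in eTreg than in Teff (−2.26 and −3.53).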

How the data were processed

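The data are ATAC-seq scores of 30 samples in 2 deposited tables, of which the table with 26 libraries and 69316 peaks was used, and the table with 22 libraries for the check of names. The values are normalized peak scores deposited by the authors, a signal per peak that is never negative. The submitters' processing notes give mm10 as the build and list edgeR 3.36.0 and 3.38.4, DiffBind 3.0.15 and 3.4.11, MACS2 2.2.7.1, and Bowtie2 2.4.1, and the role of each is not given in the sources used here. Within a library, 100% of scores were whole multiples of 1 step (tolerance 0.02), so whole reads were recovered. edgeR 4.0.16 was run on them as an alternative.

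For the results, log2(score + 1) of all peaks was fitted with limma 3.58.1 (R 4.3.3, moderated with a mean trend, robust), all groups of the table in 1 fit, with p-values adjusted by Benjamini-Hochberg over all 69316 peaks and a threshold of 0.05. Every adjusted p in the text comes from this fit unless another is named. The fit was tested on simulated data. Of the peaks, 69142 are 401 bp wide, and 65186 had a protein-coding gene of RefSeq (GRCm38.p6) within 100 kb. Start sites were listed for 17492 of 21900 genes. Fold bounds use a floor of 3 reads per library, and read ratios have exact 95% intervals that cover counting error only. Gene lists, members and tests were chosen with earlier results of these data known, and the lists share genes. Named peaks are the 12 largest gains and losses, up to 4 genes per list by smallest p, 20 genes of Treg and T cell identity at their smallest p, and the 5 clearest differences of differences per direction, and some genes are not reported here. Start-site peaks, promoter peaks and genes with many called peaks were added after values were seen. Peak sequences were to be shown, and promoter windows were used instead. Alternatives were other pseudocounts, scalings, filters, fits and left-out libraries.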

Additional observations from a re-analysis of the deposited data

Results flagged for a closer look

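The difference between cTreg minus Tnaive and eTreg minus Teff was tested as 1 term in limma with Benjamini-Hochberg adjustment over all peaks. It passed at 2708 peaks, 3.91% of all. The named peaks among them are given here by the size of that difference on the log2 scale of score + 1. Most were named for a large or clear cTreg minus Tnaive change, which is itself a part of the difference. Their number and the sign of their differences therefore follow in part from how they were chosen. Fitted values at peaks with no or few reads in a group depend on the added 1 and are no bounds.

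Among Treg identity and Treg partner genes, the difference was 3.97 and 3.27 at both Ikzf2 peaks, 2.94 at Ikzf4, 3.79 at Plagl1, 2.85 at Itgb8, 3.20 at Nrp1, 1.85 at Socs2, 3.09 at Il2rb, 1.33 at Tnfrsf9, 2.14 at Ets1 and 5.67 at Rora. Among effector Treg genes and helper factors it was 1.69 at Icos, 1.38 at Pdcd1, 1.41 at Irf4, 2.97 at Ccr6, 2.87 at Stat4 and 1.49 at Ahr. At Ifng it was 2.69 at the start site, where Teff were high, and 3.34 at the peak beside it. Signalling and receptor genes gave 1.83 at Rel, 1.29 at Nfkb1, 1.69 at Tox, 1.89 at Lcp2, 2.68 at Cblb, 2.43 at Smad3, 2.46 at Itgav, 2.76 at Cish and 2.45 at Cd44. The naive cell repressor gene Bach2 gave 1.04, Nrp2 2.09, the B cell factor gene Pax5 2.36 and Il2 −1.14.

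Genes outside the lists gave 1.88 at Rgs1, 4.01 at Atxn7l1, 4.26 and 2.52 at both Hdac9 peaks, 4.77 at Cd47, 3.61 at Pter, 1.81 at Rbm45, 4.01 at Prr5l, 4.22 at Tet2, 2.69 at Coro2a, 1.68 at Cdk6, 2.62 at Mdfic, 3.92 at Dusp4 and 3.02 at a peak of chromosome 4 (32126846 to 32127246) with no protein-coding gene within 100 kb. Peaks with a negative difference were Mapk9 at −3.53, Cox10 at −3.75, Stxbp4 at −3.40, Gpr15 at −1.82, Nebl at −2.25, Nacc2 at −3.24, Mynn at −4.78, Chd7 at −2.19, Slc4a4 at −4.17, Gtf2ird1 at −3.26 and N4bp1 at −2.26.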

How the results depend on the processing

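Between cTreg and Tnaive, the 11518 peaks called became 4497 when tested against a 1.5-fold change and, in the table with 22 libraries, where peaks, scores, names and the libraries named Tnaive all differ, 5. Leaving out 1 library gave 7582 to 8411, with the lowest count without cTreg replicate 1, and 3221 to 3499 lower peaks in place of 5418. No peak called here was called the opposite way under the other fits of the same table, and the share of calls that were higher ranged from 42.6%, in a fit of the 4 libraries alone, to 61.3%, against a 1.5-fold change. The split was 5993 higher and 4608 lower under quantile scaling, and 5928 and 6002 with edgeR and TMM. For the difference with eTreg minus Teff, the 2708 peaks became 4217 with a pseudocount of 5 (2355 above and 1862 below) and 4555 in a fit of the 4 groups alone (2630 and 1925). Leaving out 1 library gave 1347 to 2335. The cause was not tested.

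No label says whether replicate numbers pair the samples. Deviations of same-numbered libraries correlated at 0.043 between cTreg and Tnaive and at 0.078 between cTreg and eTreg. Such values cannot settle whether the libraries are paired. A replicate block in the fit of 4 groups gave 7693 higher and 8358 lower peaks, a block in the fit of cTreg and Tnaive alone 6968 and 9250, and the block took the difference with eTreg minus Teff to 5955 peaks. Of 87 called named peaks, 4 lost the call under at least 1 alternative, among them peaks at Tcf7, Dapl1 and Cox10. Peaks at Il7r and the Ctla4 start site gained a call under some. Most named peaks were chosen for a small p or a large change in these data, so their stability follows in part from that choice. A filter on the mean score left 83 of the 87 called named peaks in the test, and these kept the call. With 2 libraries a group, differences near the median SE of 0.34 were not detectable, and larger ones could fail the test too. An Ikzf2 peak at 1.12 (SE 0.42, limma adjusted p = 0.068) and a Ccr7 peak at −0.91 (SE 0.33, 0.058) were not called. A peak without a call may therefore still differ.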
